A study of Mus musculus with 16 samples.

Results

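The IGF binding proteins are 7 genes, Igfbp1 to Igfbp7, taken here from 24357 genes tested on liver arrays of WT and Lcn2-/- mice. Members were the gene probes that the array design names after one of the 7 symbols. There were 8 such probes, 2 of them for Igfbp2, and where a gene had several the probe with the highest mean over the 16 arrays was used. All 7 members were well above background on 16 of 16 arrays, so none was lost to the filter on dim probes.

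The animals were male BALB/c mice, aged 6 to 8 weeks when treatment began. They were either wild type (WT) or lacked Lcn2, the gene of the secreted iron carrier-binding protein lipocalin 2. The knockout had been made on a mixed background of other strains and backcrossed to BALB/c. CCl4 is a solvent that hepatocytes turn into a toxic radical. It was given in corn oil by intraperitoneal injection at 0.5 ml/kg for 4 weeks, 2 times per week, and the mice were killed 48 h after their final injection. Control mice received corn oil. Controls were 4 WT and 3 Lcn2-/- arrays, treated mice 5 WT and 4 Lcn2-/- arrays, and the comparison asks how loss of Lcn2 changes the response of the liver to repeated CCl4 injury.

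IGF binding proteins are secreted proteins that hold insulin-like growth factors in blood and tissue and set how much reaches the IGF1 receptor. Igfbp1 to Igfbp6 bind IGF with high affinity, and Igfbp7 binds it weakly. In the liver, Igfbp1, Igfbp2 and Igfbp4 are known mainly as hepatocyte products. Igfbp3, Igfbp5, Igfbp6 and Igfbp7 are known mainly from non-parenchymal cells, among them endothelial, Kupffer and stellate cells. These classes are background knowledge and were not measured here.

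Levels below are log2 normalized array signals, and a difference of 1 is a doubling. A member is said to have risen or fallen where limma's moderated test gave an adjusted p under 0.05, with Benjamini-Hochberg adjustment over all genes tested. Signals of different probes are not compared with each other. The share of spots well above background was 51.6% to 60.9% per array, and no gene spot was saturated. The Lcn2 probe read 10.47 to 12.25 in the Lcn2-/- arrays and 13.79 to 17.57 in the WT arrays, without overlap, although it stayed well above background in the knockout. The hepatocyte markers, with Alb at 18.75 to 19.08 on every array, were at the levels of liver tissue. The 7 controls and WT CCl4 1 were on slide 1 and the other CCl4 arrays on slide 2. Treatment and slide therefore cannot be told apart in Lcn2-/- mice, and in WT mice only WT CCl4 1 separates them. WT control 3 and Lcn2-/- control 3 stood apart from the other controls, with mean neutrophil marker signals of 10.92 and 12.25 against 8.89 to 9.62 in the other 5. Their Kupffer cell and macrophage markers were also at 14.08 in both, against 11.93 to 12.75.

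The members lie in 5 places in the genome. Igfbp1 and Igfbp3 are neighbours on chromosome 11, 3.54 kb apart with 0 other genes between them in RefSeq GRCm38.p6. Igfbp2 and Igfbp5 are neighbours on chromosome 1, 5.59 kb apart and also with 0 genes between them. Igfbp4 lies elsewhere on chromosome 11, Igfbp6 on chromosome 15 and Igfbp7 on chromosome 5. On the mm9 build used by the array files, the probe for Igfbp1 lies at chr11:7102442-7102501, that for Igfbp3 at chr11:7106594-7106653, that for Igfbp6 at chr15:101979852-101979911 and that for Igfbp7 at chr5:77778271-77778330. Whether these 4 lie in coding sequence was not analysed here.

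Igfbp2 was read by 2 probes, which makes it the member whose genotype difference could be measured on separate stretches of its transcript. The probe used for the levels lies at chr1:72898813-72898872 and the second at chr1:72898677-72898736, on the plus strand of mm9. The second probe is shown because its 60 bases hold an open frame that ends in a stop codon, in capitals, so that it reads the last coding bases of the gene.
Igfbp2, the second probe: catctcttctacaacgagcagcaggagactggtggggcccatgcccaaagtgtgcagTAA

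The promoters of the 4 members that changed with CCl4 in either genotype are shown with that of Igfbp5, since Igfbp5 moved with Igfbp6 between arrays. Each line gives the 150 bases before the start site, 5′ to 3′, from RefSeq GRCm38.p6. All 7 members matched the RefSeq promoter table, in 8 windows, because Igfbp2 has 2 start sites there. Capitals mark matches, on either strand, to 6 motifs: a TATA box core TATAAA, an insulin response type FOXO element CAAAACAA, an HNF1-type site GTTAAT, a GC box GGGCGG, an AP-1 site TGANTCA and an E-box CACGTG.
Igfbp1, chr11:7197637-7197786, plus strand: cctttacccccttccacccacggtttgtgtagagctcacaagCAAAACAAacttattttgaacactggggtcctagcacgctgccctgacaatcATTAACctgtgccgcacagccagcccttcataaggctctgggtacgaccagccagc
Igfbp3, chr11:7213924-7214073, minus strand: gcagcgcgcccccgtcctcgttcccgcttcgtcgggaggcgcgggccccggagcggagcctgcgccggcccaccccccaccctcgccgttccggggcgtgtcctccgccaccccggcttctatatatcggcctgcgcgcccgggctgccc
Igfbp5, chr1:72874866-72875015, minus strand: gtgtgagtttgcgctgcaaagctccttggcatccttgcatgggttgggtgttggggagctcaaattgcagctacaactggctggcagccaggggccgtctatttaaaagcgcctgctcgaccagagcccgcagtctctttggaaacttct
Igfbp6, chr15:102144036-102144185, plus strand: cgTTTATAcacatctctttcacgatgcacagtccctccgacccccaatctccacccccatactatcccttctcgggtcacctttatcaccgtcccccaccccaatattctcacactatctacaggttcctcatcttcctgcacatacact
Igfbp7, chr5:77408046-77408195, minus strand: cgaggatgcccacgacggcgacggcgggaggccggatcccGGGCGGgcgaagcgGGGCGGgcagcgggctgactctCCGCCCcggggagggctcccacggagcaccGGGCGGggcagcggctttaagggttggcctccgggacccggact

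The motif matches differed between members. The FOXO element was found in the Igfbp1 window only, starting at position -108 from the start site, and 2.51% of all 32851 promoter windows of 300 bases held it. An HNF1-type site at -56 was likewise found in Igfbp1 alone of the members, against 7.1% of all windows. Igfbp7 had 4 GC boxes and the first Igfbp2 window 3, a motif present in 35.7% of windows. The TATA box core, in 13.6% of windows, was found in Igfbp4 at -28 and on the opposite strand in Igfbp6 at -148. The AP-1 site, in 7.81% of windows, was found in the second Igfbp2 window at -39, and the E-box, in 7.15%, in the first at -142. Neither Igfbp3 nor Igfbp5 held any of these letters in its window. The GC content of the 250 bases before the start site was 74% for Igfbp7, 73.2% for Igfbp3, 58.8% for Igfbp5, 53.2% for Igfbp1 and 49.6% for Igfbp6. A match describes the letters only.

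CCl4 raised 2 of the 7 members in WT mice, Igfbp6 and Igfbp7, and 3 of the 7 in Lcn2-/- mice, Igfbp1, Igfbp3 and Igfbp7. No member fell in either genotype. Over all genes tested, 16.8% changed in WT and 12.2% in Lcn2-/- mice, with 8.01% and 6.57% higher. All 7 members had a higher mean under CCl4 than in the controls of the same genotype. Of the 24357 genes tested, 11266 had a higher mean in WT and 11586 in Lcn2-/- mice. The WT sign of Igfbp2 and Igfbp4, whose differences were small, turned in some alternative fits. In bulk liver, more cells of a type cannot be told apart from more RNA per cell. Levels of all members by array are plotted next.

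**Figure D1:**
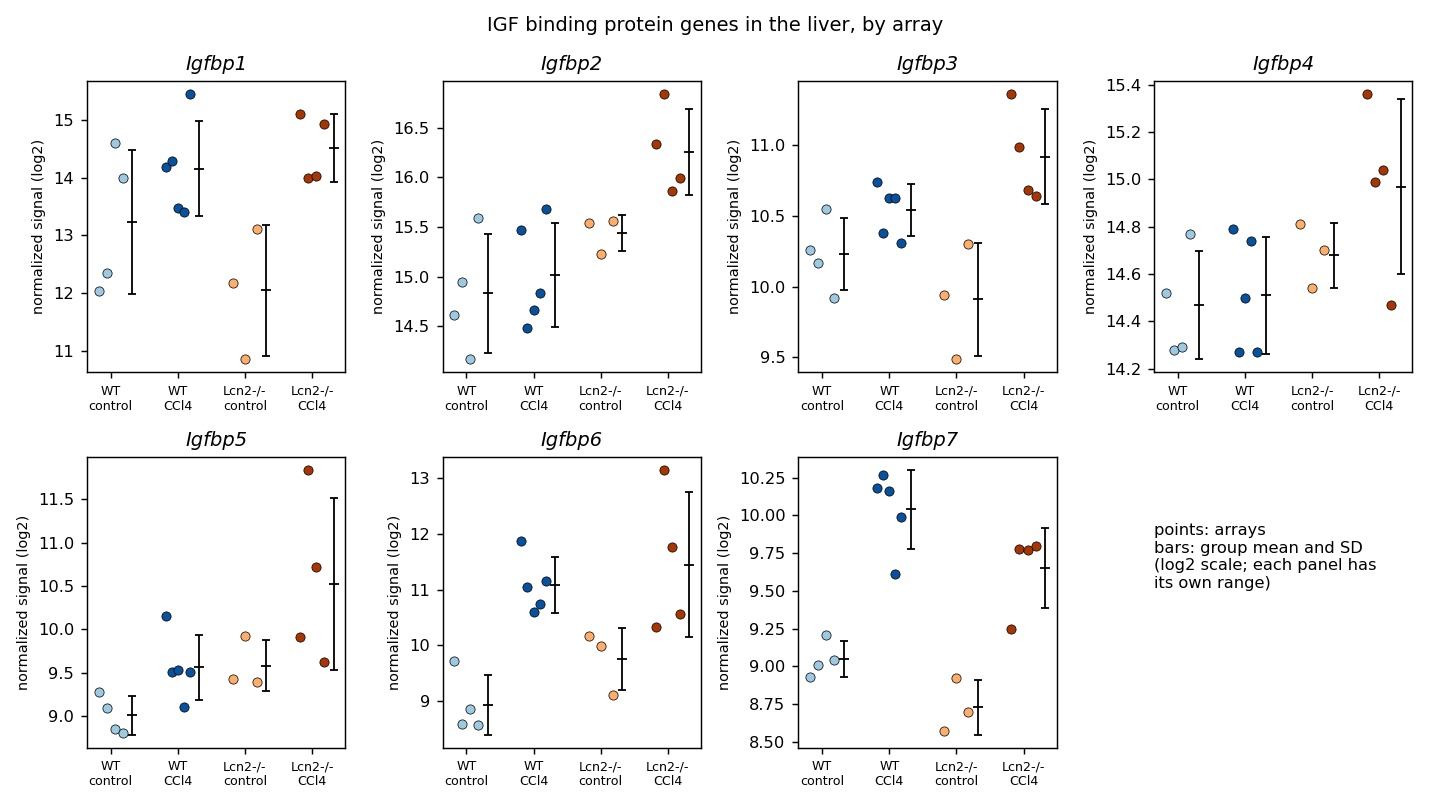
Normalized log2 signal of the 7 IGF binding protein genes on each of the 16 arrays, by group, with the group mean and SD as bars beside the points and an axis range of its own for each gene. Igfbp7 separates CCl4 from control arrays in both genotypes, and the 4 Lcn2-/- CCl4 arrays lie above the 5 WT CCl4 arrays for Igfbp2.

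Of the hepatocyte members, Igfbp1 rose with CCl4 in Lcn2-/- mice. Igfbp1 encodes a binding protein that hepatocytes secrete acutely in fasting and stress and that insulin represses. Its signal was 12.18, 10.86 and 13.12 in the 3 Lcn2-/- controls and 15.10, 14.00, 14.03 and 14.94 in the 4 Lcn2-/- CCl4 livers. All treated livers were above all controls. The difference was 2.47 (SE 0.677, 95% CI 1.02 to 3.92, 5.53-fold, limma adjusted p 0.0285).

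In WT mice Igfbp1 read 12.03, 12.35, 14.60 and 13.99 in the controls. It read 14.18, 14.29, 13.47, 13.40 and 15.45 under CCl4. The WT controls fell into a lower and a higher pair, and the higher pair lay among the treated livers. The WT difference was 0.92 (SE 0.595, 95% CI -0.36 to 2.19, adjusted p 0.325), and it ran from 0.51 without WT control 1 to 1.37 without WT control 3. The difference between the genotypes' responses, 1.55 (95% CI -0.38 to 3.48), had an unadjusted p of 0.107, so the Igfbp1 response was not shown to differ between genotypes. It ran from 0.95 without Lcn2-/- control 2 to 2.09 without Lcn2-/- control 3.

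Igfbp1 had the widest spread between arrays of a group among the members, with a pooled SD of 0.958, larger than that of 95.2% of genes. The call in Lcn2-/- mice was lost without Lcn2-/- control 1 (adjusted p 0.0769), without Lcn2-/- control 2 (1.87, adjusted p 0.147), without Lcn2-/- CCl4 1 (adjusted p 0.0714) and without Lcn2-/- CCl4 4 (adjusted p 0.0622). The 2 controls numbered 3 were the highest Igfbp1 controls of their genotypes. Without both of them the responses were 3.00 in Lcn2-/- (adjusted p 0.00841) and 1.37 in WT mice (adjusted p 0.0978). Over deviations of the 16 arrays from group means, r of Igfbp1 was 0.655 with the mean of the Kupffer cell and macrophage markers, 0.63 with that of the lymphocyte markers, 0.546 with that of the neutrophil markers and -0.498 with that of the hepatocyte markers. The part of these cells in the Igfbp1 levels was not tested. Both controls numbered 3, which stood apart for the macrophage and neutrophil markers, deviated upwards for Igfbp1, by 1.36 in WT and 1.07 in Lcn2-/-. They were also the highest controls of their genotypes for the lymphocyte markers. These 2 arrays weigh heavily in the r with the macrophage, lymphocyte and neutrophil markers, and r without them is not given.

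Igfbp2, a hepatocyte binding protein found at high levels in the fetus and in low-insulin states, did not pass the test for CCl4 in either genotype. It read 14.61, 14.95, 14.17 and 15.59 in WT controls and 15.47, 14.48, 14.66, 14.83 and 15.68 in WT CCl4 livers. The 2 WT groups overlapped throughout, with a difference of 0.19 (95% CI -0.46 to 0.85, adjusted p 0.718). In Lcn2-/- mice the controls read 15.54, 15.23 and 15.56 and the CCl4 livers 16.34, 16.84, 15.86 and 15.99. These 2 groups did not overlap, and the difference was 0.82 (SE 0.349, 95% CI 0.068 to 1.56, limma unadjusted p 0.0345, adjusted p 0.148).

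Igfbp4, which mainly holds IGF away from its receptor, varied least over the 16 arrays, within a range of 1.1. It read 14.28 to 14.77 in WT controls, 14.27 to 14.79 in WT CCl4, 14.54 to 14.81 in Lcn2-/- controls and 14.47 to 15.36 in Lcn2-/- CCl4 livers. All 4 groups overlapped. The CCl4 difference was 0.049 in WT (95% CI -0.33 to 0.43) and 0.28 in Lcn2-/- mice (95% CI -0.15 to 0.71), with limma adjusted p of 0.887 and 0.392. The Lcn2-/- value was 0.15 without Lcn2-/- CCl4 1 and 0.45 without Lcn2-/- CCl4 4. The WT value turned to -0.077 when arrays were scaled to their 75th percentile, a scaling that moved the median of all genes to -0.16 in WT and -0.14 in Lcn2-/- mice.

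Among the non-parenchymal members, Igfbp6 had the largest difference in WT mice. Igfbp6 encodes a binding protein that prefers IGF2 over IGF1. It read 9.71, 8.58, 8.86 and 8.57 in WT controls and 11.88, 11.05, 10.60, 10.74 and 11.16 in WT CCl4 livers. The lowest treated liver was above the highest control. The difference was 2.15 (SE 0.494, 95% CI 1.10 to 3.21, 4.45-fold, limma adjusted p 0.0082).

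Without Lcn2, Igfbp6 read 10.16, 9.98 and 9.11 in controls and 10.32, 13.15, 11.76 and 10.56 under CCl4. The groups did not overlap, but the treated livers spread widely, from 10.32 up to Lcn2-/- CCl4 2 at 13.15. The difference was 1.70 (SE 0.562, 95% CI 0.50 to 2.90, 3.25-fold, limma adjusted p 0.0638). It did not pass the test with all arrays and passed without Lcn2-/- CCl4 1 (2.08, adjusted p 0.0298) or without Lcn2-/- CCl4 4 (2.00, adjusted p 0.0419). Without Lcn2-/- CCl4 2, the liver at 13.15, the difference fell to 1.13 (adjusted p 0.118), and without Lcn2-/- CCl4 3 it was 1.59 (adjusted p 0.128). The responses of the 2 genotypes differed by -0.45 (95% CI -2.06 to 1.15), so a difference between them was not shown. That value was -1.02 without Lcn2-/- CCl4 2 and -0.077 without Lcn2-/- CCl4 1.

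Igfbp7, a matrix-associated protein of vascular and stromal cells that is also called angiomodulin, rose in both genotypes. It read 8.93, 9.01, 9.21 and 9.04 in WT controls and 10.18, 10.27, 10.16, 9.61 and 9.99 in WT CCl4 livers. It read 8.57, 8.92 and 8.70 in Lcn2-/- controls and 9.25, 9.78, 9.77 and 9.80 in Lcn2-/- CCl4 livers. Within each genotype every treated liver was above every control. The differences were 0.99 in WT (SE 0.152, 95% CI 0.67 to 1.32, 1.99-fold, limma adjusted p 0.000452) and 0.92 in Lcn2-/- mice (SE 0.173, 95% CI 0.55 to 1.29, 1.9-fold, adjusted p 0.00306). The interval of the difference between these responses was -0.56 to 0.42.

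Igfbp3, the main carrier of IGF1 in blood and a product of non-parenchymal liver cells, rose in Lcn2-/- mice. It read 9.94, 9.49 and 10.30 in Lcn2-/- controls and 11.36, 10.99, 10.68 and 10.64 in Lcn2-/- CCl4 livers. The groups did not overlap. The difference was 1.01 (SE 0.215, 95% CI 0.55 to 1.47, 2.01-fold, limma adjusted p 0.00716).

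In WT mice Igfbp3 read 10.26, 10.17, 10.55 and 9.92 in controls and 10.74, 10.38, 10.63, 10.63 and 10.31 under CCl4. These groups overlapped, and the difference was 0.31 (SE 0.189, 95% CI -0.093 to 0.72, adjusted p 0.288). The Lcn2-/- response exceeded the WT response by 0.70 (SE 0.287, 95% CI 0.082 to 1.31, limma unadjusted p 0.0291, adjusted p 1), the only member with an unadjusted p under 0.05 for that contrast, against 3.33% of all genes. It was not past the threshold after adjustment, and 0 of 7 members were, against 0.0534% of all genes.

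Igfbp5, a binding protein that attaches to extracellular matrix, did not pass the test for CCl4 in either genotype. It read 9.28, 9.09, 8.85 and 8.80 in WT controls and 10.15, 9.51, 9.53, 9.10 and 9.51 in WT CCl4 livers. WT CCl4 4, at 9.10, lay within the range of the controls. In Lcn2-/- mice the controls read 9.43, 9.92 and 9.39 and the CCl4 livers 9.91, 11.84, 10.72 and 9.62. The differences were 0.56 in WT (95% CI -0.21 to 1.32, adjusted p 0.317) and 0.94 in Lcn2-/- mice (95% CI 0.075 to 1.81, adjusted p 0.15). Without Lcn2-/- CCl4 2 the Lcn2-/- value was 0.50 (adjusted p 0.29).

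**Figure D2:**
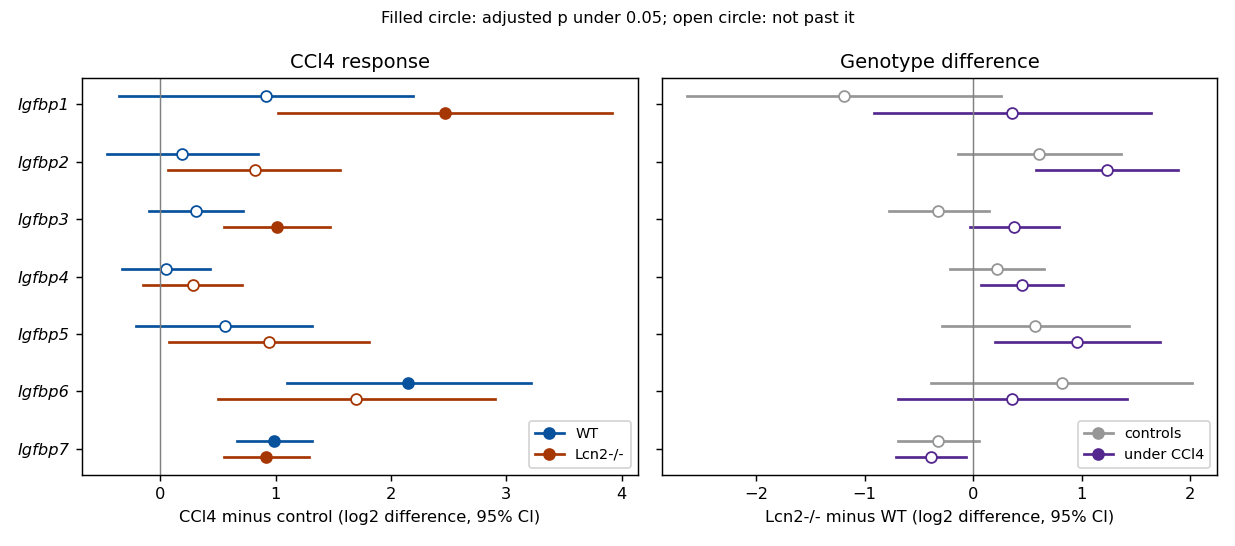
Log2 differences of the 7 members with their 95% confidence intervals from limma. The left panel shows CCl4 minus control in WT and Lcn2-/- mice and the right panel Lcn2-/- minus WT in controls and under CCl4; filled circles mark an adjusted p under 0.05. All 14 responses are above 0 and 5 are filled, while no genotype difference is filled.

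By class, the 3 hepatocyte members had a median CCl4 difference of 0.19 in WT and 0.82 in Lcn2-/- mice, and 0 and 1 of them rose. The WT median is the value of Igfbp2, which was -0.03 without WT control 3, and Igfbp4 was then -0.0083. The 4 non-parenchymal members had medians of 0.77 and 0.98, and 2 of 4 rose in each genotype. Of all genes tested, 8.01% rose in WT and 6.57% in Lcn2-/- mice. Over all 7 the medians were 0.56 and 0.94, beside -0.032 and -0.023 over all genes tested. Each class median rests on few genes, and the ranges of the 2 classes overlapped, at 0.05 to 0.92 and 0.31 to 2.15 in WT and at 0.28 to 2.47 and 0.92 to 1.70 in Lcn2-/- mice.

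Control and CCl4 livers did not overlap for 2 of 7 members in WT mice, Igfbp6 and Igfbp7, with 8.03% of all genes separated in that direction. In Lcn2-/- mice they did not overlap for 5 of 7, Igfbp1, Igfbp2, Igfbp3, Igfbp6 and Igfbp7, with 12.1% of all genes separated upwards. The Lcn2-/- groups were smaller, so separation is easier there.

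Stellate cell and fibroblast markers, apart from Tagln, had higher means under CCl4 in both genotypes, as did the members of both classes. Of 12 such markers, 10 rose in WT and 9 in Lcn2-/- mice. Their mean signal was 11.01 to 11.92 in WT controls and 12.45 to 13.29 in WT CCl4 livers. It was 10.84 to 10.98 in Lcn2-/- controls and 12.37 to 12.87 in Lcn2-/- CCl4 livers. Of 10 sinusoidal endothelial markers 1 rose and 1 fell in WT, and 1 rose in Lcn2-/- mice. Of 9 hepatocyte markers 0 changed in WT and 1 rose in Lcn2-/- mice. Of 8 Kupffer cell and macrophage markers, 1 rose and 2 fell in WT and 1 rose in Lcn2-/- mice. Neutrophil markers rose in WT for 4 of 7 and in Lcn2-/- mice for 0 of 7, with median differences of 1.96 and 1.24 over the list. Their mean signal was 9.06 to 10.92 in WT controls and 11.16 to 11.78 in WT CCl4 livers, and 8.89 to 12.25 and 10.62 to 11.34 in the Lcn2-/- groups. Of 7 cholangiocyte markers 1 rose in each genotype, and of 6 lymphocyte markers 2 fell in WT and 1 in Lcn2-/- mice. The part of these cell types in the members' levels was not tested.

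With slide as a term, the WT difference rests on WT CCl4 1, the only treated liver on the slide of the controls and the highest WT CCl4 liver for Igfbp6. It was 2.95 for Igfbp6 (adjusted p 0.0529) and 1.13 for Igfbp7 (adjusted p 0.0238). A fit of slide 1 alone makes the same comparison of 1 treated liver with the controls, and gave adjusted p of 0.0423 and 0.0327 under the assumption that this liver varies like the control groups. In Lcn2-/- mice all controls were on slide 1 and all CCl4 livers on slide 2, so that with the slide term the slide difference comes from WT CCl4 1 alone. No member passed there, with differences of 2.50 for Igfbp1 (limma adjusted p 0.352), 1.26 for Igfbp3 (adjusted p 0.125) and 1.09 for Igfbp7 (adjusted p 0.10).

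Between the genotypes under CCl4, no member passed the test, against 0.636% of all genes (155 of 24357). At an unadjusted p under 0.05 there were 4, with Igfbp2, Igfbp4 and Igfbp5 higher and Igfbp7 lower in Lcn2-/- livers, against 13.7% of all genes at that threshold. Igfbp2 was the only member whose groups did not overlap. The 4 Lcn2-/- CCl4 livers lay at 15.86 to 16.84 and the 5 WT CCl4 livers at 14.48 to 15.68. Over all genes, 2.41% were separated upwards and 3.26% downwards in this comparison.

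The Igfbp2 genotype difference under CCl4 was 1.23 (SE 0.306, 95% CI 0.58 to 1.89, 2.35-fold, limma unadjusted p 0.00121, adjusted p 0.10). The second, coding Igfbp2 probe read 16.04, 16.60, 15.52 and 15.39 in Lcn2-/- CCl4 livers and 15.16, 13.96, 14.22, 14.46 and 15.06 in WT CCl4 livers, again without overlap. Its difference was 1.32 (SE 0.342, limma unadjusted p 0.00172, adjusted p over all probes 0.123). Over the 16 arrays the 2 probes had a Pearson r of 0.988, so they give nearly 1 reading of each RNA sample rather than 2. With array weights the Igfbp2 difference was 1.32 and passed the test, at an adjusted p of 0.0341. On slide 2 alone it was 1.35 (adjusted p 0.127). There the WT arrays lay in the upper and the Lcn2-/- arrays in the lower row of the slide, so genotype and row cannot be told apart on it. WT CCl4 1, in the lower row of slide 1, read 15.47, below WT CCl4 5 at 15.68 and above the other WT CCl4 livers. On the second probe it was the highest WT CCl4 liver, at 15.16. The part of the row in the Igfbp2 difference was not tested.

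The other genotype differences under CCl4 were smaller relative to their error. Igfbp5 was 0.96 higher in Lcn2-/- livers (95% CI 0.20 to 1.72, unadjusted p 0.017, adjusted p 0.267), and 0.52 higher without Lcn2-/- CCl4 2. Igfbp4 was 0.45 higher (95% CI 0.075 to 0.83, adjusted p 0.292). Igfbp7 was the only member with a lower mean in Lcn2-/- livers, by -0.39 (95% CI -0.71 to -0.065, adjusted p 0.292). Of the 12 stellate cell and fibroblast markers, 11 also had a lower mean in Lcn2-/- livers under CCl4 (median -0.31) and 11 in controls (median -0.43), and 0 passed the test in either comparison. Igfbp1, Igfbp3 and Igfbp6 differed by 0.36, 0.38 and 0.36, with intervals that included 0. With single arrays left out, Igfbp1 ran from 0.17 to 0.68, the highest without WT CCl4 5, and Igfbp3 from 0.23, without Lcn2-/- CCl4 1, to 0.47. For Igfbp6 the sign rested on 1 liver, since the value was -0.20 without Lcn2-/- CCl4 2.

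Between the genotypes in control livers, 0 of 7 members passed the test, against 0.53% of all genes, and 0 had an unadjusted p under 0.05 in limma, against 8.3% of all genes. All WT controls lay in the upper and all Lcn2-/- controls in the lower row of slide 1, so genotype and row cannot be told apart here. Igfbp1 was lower in Lcn2-/- controls by -1.19, with an interval of -2.64 to 0.26. Leaving out single arrays moved that value from -0.59, without Lcn2-/- control 2, to -1.72, without Lcn2-/- control 3, and it was -0.74 without WT control 3. Igfbp6 was 0.82 higher and Igfbp2 0.61 higher, with intervals of -0.39 to 2.02 and -0.14 to 1.36. The Igfbp2 value ran from 0.39 without WT control 3 to 0.86 without WT control 4, and was 0.33 without both controls numbered 3. The groups did not overlap for Igfbp5, higher in Lcn2-/- controls by 0.57, and for Igfbp7, lower by -0.32. Over all genes 4.21% were separated upwards and 5.42% downwards between the controls. For Igfbp7 the gap was between 8.92 and 8.93.

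When the controls were paired by replicate number, 6 of 7 members differed in 1 sign within the 3 pairs, against 43.5% of all genes. The labels give these numbers but do not state a pairing. The Lcn2-/- control was higher in each pair for Igfbp4, by 0.30, 0.26 and 0.40, and for Igfbp2, by 0.92, 0.28 and 1.39. It was also higher in each pair for Igfbp5 and Igfbp6. Igfbp3 was lower in each pair, by -0.32, -0.68 and -0.25, as was Igfbp7. Igfbp1 was the exception, at 0.15, -1.49 and -1.48. In a limma fit of the controls alone with the replicate block, the differences were 0.32 for Igfbp4 (SE 0.0785, unadjusted p 0.0194, adjusted p 0.245), 0.86 for Igfbp2 (SE 0.253, adjusted p 0.275), -0.42 for Igfbp3 (SE 0.122, adjusted p 0.275) and 0.51 for Igfbp5 (SE 0.165, adjusted p 0.297). These were the 4 members with an unadjusted p under 0.05 in that fit, against 16.3% of all genes, and 0 passed after adjustment. That fit was chosen after seeing the data.

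Put in order of their group means, Igfbp2 and Igfbp4 ran from WT control through WT CCl4 and Lcn2-/- control to Lcn2-/- CCl4. For Igfbp2 the 3 lower groups, with means of 14.83, 15.02 and 15.44, overlapped in pairs, and Lcn2-/- CCl4, at 16.26, did not overlap any of them. For Igfbp1 and Igfbp3 the order was Lcn2-/- control, WT control, WT CCl4 and Lcn2-/- CCl4. Each neighbouring pair of groups in that order overlapped for both genes. For Igfbp6 the means were 8.93 in WT and 9.75 in Lcn2-/- controls, then 11.08 in WT and 11.45 in Lcn2-/- livers under CCl4. The 2 control groups overlapped and so did the 2 CCl4 groups. For Igfbp7 the order was Lcn2-/- control (8.73), WT control (9.05), Lcn2-/- CCl4 (9.65) and WT CCl4 (10.04), and only the 2 CCl4 groups overlapped. For Igfbp5 the WT CCl4 and Lcn2-/- control means, 9.56 and 9.58, were nearly equal and their groups overlapped.

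Most arrays deviated from their group mean in the same direction for Igfbp5 as for Igfbp6. Among the exceptions, WT control 2 was at 0.08 for Igfbp5 and -0.35 for Igfbp6. Likewise, Lcn2-/- control 1 was at -0.15 for Igfbp5 and 0.41 for Igfbp6. Over the deviations of the 16 arrays from their group means, Pearson r between Igfbp5 and Igfbp6 was 0.898. It was 0.801 without the 2 arrays farthest from the median of Igfbp5, Lcn2-/- CCl4 2 and Lcn2-/- CCl4 4. Over the 12 arrays of the other 3 groups it was 0.704. This was the highest r of the 21 pairs of members. The next highest was 0.44, for Igfbp3 and Igfbp4, and the lowest was -0.575, for Igfbp4 and Igfbp7. The chromosomal neighbours Igfbp1 and Igfbp3 had an r of 0.27 and Igfbp2 and Igfbp5 one of 0.312. All points share the normalization and the 2 slides, and r is given as a description.

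The cholangiocyte markers moved with Igfbp6 and Igfbp5 between arrays. Their mean signal was 8.999, 9.616, 9.276 and 9.017 in Lcn2-/- CCl4 1 to 4, the same order as Igfbp6 in these livers. WT CCl4 1, at 9.44 against 8.87 to 8.99 in the other WT CCl4 livers, and WT control 1, at 8.92, were the highest of their groups for these markers and for both genes. In Lcn2-/- controls the markers and Igfbp6 were highest in control 1, at 8.63 and 10.16, and Igfbp5 in control 2, at 9.92. Over deviations of the 16 arrays, r with the mean of the cholangiocyte list was 0.80 for Igfbp6 and 0.677 for Igfbp5. With the other 6 marker lists it lay between -0.305 and 0.297 for Igfbp6 and between -0.214 and 0.305 for Igfbp5. For the other members, the r farthest from 0 was 0.747 for Igfbp4 with the hepatocyte list, -0.675 for Igfbp2 with the sinusoidal endothelial list, 0.589 for Igfbp3 with the neutrophil list and 0.465 for Igfbp7 with the stellate cell and fibroblast list. The part of these cells in the levels of the members was not tested. For Igfbp3, the 2 controls numbered 3, which stood apart for the neutrophil markers, deviated by 0.32 in WT and 0.39 in Lcn2-/-.

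**Figure D3:**
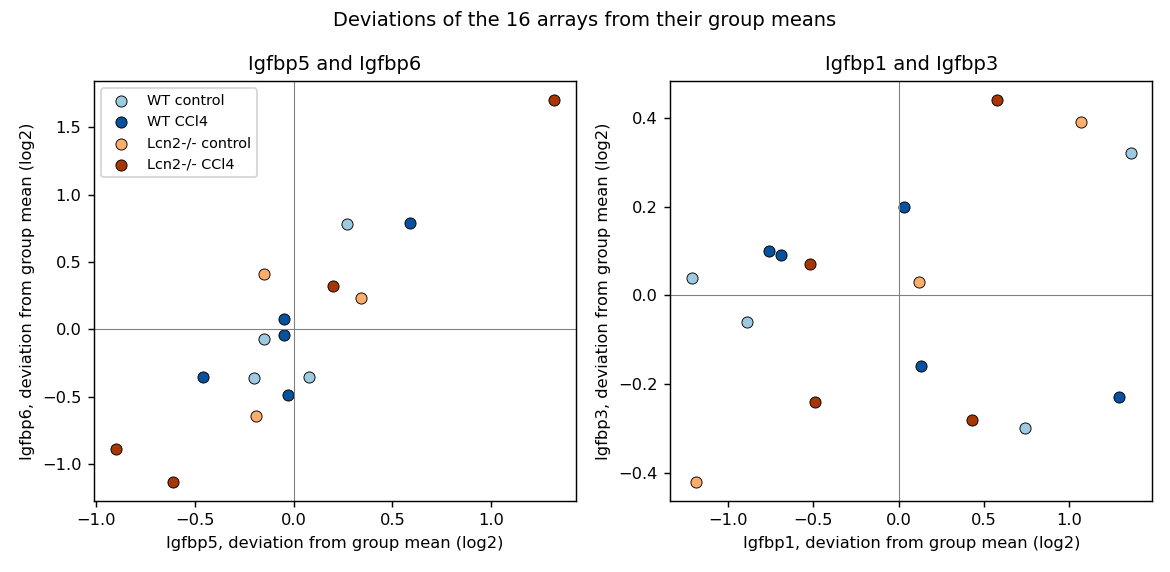
Deviations of the 16 arrays from their group means in log2 units, for Igfbp5 against Igfbp6 on the left and for the neighbours Igfbp1 against Igfbp3 on the right, coloured by group. The points for Igfbp5 and Igfbp6 follow a line (r = 0.898) with Lcn2-/- CCl4 2 at its upper end, while those for Igfbp1 and Igfbp3 scatter (r = 0.27).

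Over the log2 values of all 16 arrays, the genes whose pattern was most like that of a member were named by Pearson r. For Igfbp6 these were Sulf1, a heparan sulfate sulfatase (r = 0.975), Prr15 (0.96) and Gpm6a (0.946). For Igfbp7 they were Mfap4, a microfibril protein (0.97), Pard6g (0.964) and Ak1 (0.964). For Igfbp4 they were Eif2b5 (0.944), Fah, the last enzyme of tyrosine breakdown (0.924), and Ppif (0.906). For Igfbp5 the first was Nkain4 (0.936), followed by 2 transcripts without a gene symbol.

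For Igfbp1 the most alike were LOC631287 (0.894), Flt3 (0.888) and Otulinl (0.887), for Igfbp3 Capzb (0.878), Car2 (0.858) and Itgb1 (0.856), and for Igfbp2 Fibp (0.876), Trmu (0.847) and 1 transcript without a symbol. These values mix differences between groups with those within them. Over deviations from group means, the gene most like Igfbp1 was Cxcl1, a neutrophil-attracting chemokine (r = 0.936), and the next were Scfd1 (0.899) and Gm5796 (0.888). The gene most like Igfbp5 and Igfbp6 was in both cases Nkain4 (0.947 and 0.943). Next came Fgf18 (0.936) and Igfbp6 itself for Igfbp5, and LOC100046616 (0.937) and Sulf1 (0.932) for Igfbp6.

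For Igfbp4 the most alike in deviations were Bms1 (0.97), Pskh1 (0.965) and Wdr74 (0.96). For Igfbp7 they were LOC100048875 (0.842), Gjc1 (0.84) and Zfp703 (0.83), and for Igfbp3 2010315B03Rik (0.824), Slc10a2 (0.819) and Sertad1 (0.804). The names come from a search over all genes, so high values of r arise in it.

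The partners of the binding proteins were read on the same arrays. Igf1, the circulating ligand made by hepatocytes, was 16.93 to 17.29 in WT controls and 16.30 to 16.96 in WT CCl4 livers, a difference of -0.39 (95% CI -0.70 to -0.079, limma adjusted p 0.0811). The Lcn2-/- difference was -0.30 (95% CI -0.66 to 0.048, adjusted p 0.254). Igfals, which encodes the acid-labile subunit that completes the circulating complex of IGF1 with Igfbp3, fell in WT mice. It averaged 12.91 (SD 0.285, n = 4) in WT controls and 11.87 (SD 0.551, n = 5) in WT CCl4 livers, a change of -1.04 (SE 0.289, limma adjusted p 0.0237). Without Lcn2 the Igfals difference was -0.44 (95% CI -1.14 to 0.27, adjusted p 0.424). Its responses differed by 0.60 between genotypes (95% CI -0.33 to 1.54). Igf2 was not tested here.

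Of 7 receptors and adaptors, 1 rose and 1 fell in WT and 0 changed in Lcn2-/- mice. Igf1r, the receptor whose ligand the members hold, rose in WT mice by 0.61 (SE 0.176, 1.53-fold, limma adjusted p 0.0283) and differed by 0.37 in Lcn2-/- mice (95% CI -0.061 to 0.80, adjusted p 0.256). Irs2, the insulin receptor adaptor of hepatocytes, fell by 1.09 on the log2 scale in WT mice (SE 0.202, adjusted p 0.00192) and differed by 0.27 in Lcn2-/- mice (adjusted p 0.484). It was higher in Lcn2-/- than in WT CCl4 livers by 1.04 (SE 0.202, 2.06-fold, limma adjusted p 0.0343), with 11.89 to 12.71 against 10.67 to 11.69 and no overlap. Genotype and slide row coincide on slide 2, and the part of the row in this Irs2 difference was not tested. The interaction for Irs2 was 1.36 (unadjusted p 0.000534, adjusted p 0.42). Igf2r, which clears IGF2, differed by 0.085 and 0.10 and Insr, the insulin receptor, by -0.25 and 0.13 in WT and Lcn2-/- mice, and none of these passed.

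Of 11 genes for proteases that cut IGF binding proteins and for their inhibitors, 4 rose in WT and 3 in Lcn2-/- mice, and 0 fell. Htra1, a serine protease, rose by 2.22 in WT (SE 0.224, adjusted p 1.99e-05) and 1.56 in Lcn2-/- mice (SE 0.255, adjusted p 0.00128). Ctsd, the lysosomal cathepsin D, rose by 1.06 in WT (SE 0.128, adjusted p 7.81e-05) and 0.92 in Lcn2-/- mice (SE 0.146, adjusted p 0.00102). Pappa, the protease of Igfbp4 and Igfbp5, was not well above background on any control array and was so on all 9 CCl4 arrays. Its signal was at least 2.35-fold higher in WT mice (means 4.61 and 6.17, limma adjusted p 0.000302). In Lcn2-/- mice it was at least 1.09-fold higher (means 3.25 and 5.64, limma adjusted p 5.42e-05). The floor was the dimmest detected signal of each control array. The Lcn2-/- controls, at 3.83 or less, lay below their floor of 5.33 to 5.68. That p, and the place of Pappa among the 3 genes that rose, rest on those readings and do not measure a change above background. Mmp3 passed the test in WT (adjusted p 0.0182), with a difference of 2.54 whose size is uncertain, since it was well above background on 1 of 4 WT controls and all 5 WT CCl4 livers. It was so on 1 of 4 Lcn2-/- CCl4 livers and 0 of 3 Lcn2-/- controls.

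**Figure D4:**
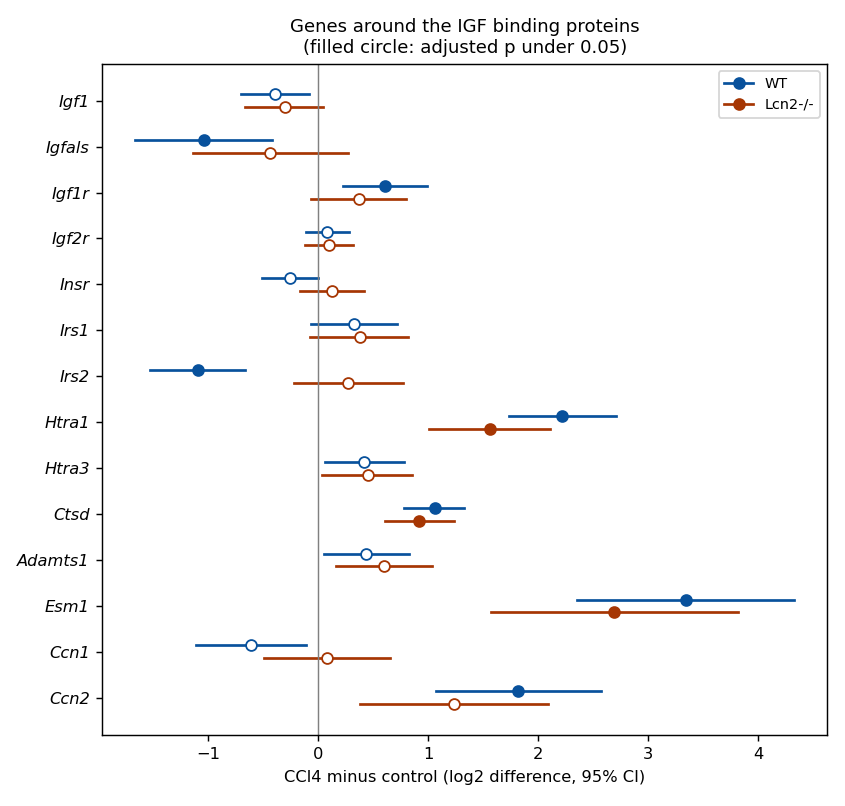
CCl4 minus control in log2 units with 95% confidence intervals from limma for 14 ligand, receptor, protease and related genes measured in the same livers, in WT and Lcn2-/- mice; filled circles mark an adjusted p under 0.05. Htra1, Ctsd and Esm1 are filled in both genotypes, and Igfals and Irs2 lie below 0 with filled circles in WT.

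Of 8 genes for related proteins that share the IGFBP fold or belong to the CCN family, 2 rose and 1 fell in WT and 1 rose and 1 fell in Lcn2-/- mice. Esm1, an endothelial proteoglycan, rose by 3.34 in WT (SE 0.461, 10.1-fold, adjusted p 0.000209) and 2.69 in Lcn2-/- mice (SE 0.525, adjusted p 0.00392). Ccn2, also called connective tissue growth factor, rose by 1.82 in WT (adjusted p 0.00251) and differed by 1.24 in Lcn2-/- mice (adjusted p 0.0578). Ccn6 passed the test as lower in both genotypes, with differences of -0.96 in WT (adjusted p 0.0301) and -1.04 in Lcn2-/- mice (adjusted p 0.0484). The size of these is uncertain, since its signal was well above background on 2 of 4 WT and 3 of 3 Lcn2-/- controls and on 2 of 5 WT and 2 of 4 Lcn2-/- CCl4 livers.

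Genes known to be regulated with Igfbp1 or Igfbp3 were counted as well. Of 8 fasting and FOXO1 response genes, 2 rose in WT, Pdk4 by 0.99 (adjusted p 0.013) and G6pc by 1.13 (adjusted p 0.0407). Without Lcn2, Pdk4 rose by 1.65 (adjusted p 0.00163) and G6pc differed by 1.16 (adjusted p 0.0766). Pck1, the other classical gluconeogenic gene of the list, differed by 0.19 and 0.092 and did not pass. Of 10 genes of the ATF4 and p53 stress responses, 1 rose in WT and 2 in Lcn2-/- mice. Atf3 rose by 2.47 (adjusted p 0.00943) and 2.68 (adjusted p 0.0158), and Cdkn1a by 2.66 in Lcn2-/- mice (adjusted p 0.0387) beside 1.91 in WT (adjusted p 0.071). Fgf21, a hepatic stress hormone of the same list, was lower in Lcn2-/- than WT controls by -3.49 (limma adjusted p 0.0153), in the comparison where genotype and slide row coincide. None of 8 growth hormone signalling genes passed in either genotype; Socs2, a growth hormone target, differed by -0.96 (adjusted p 0.286) and -0.21 (adjusted p 0.872).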

How the data were processed

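Liver RNA was labelled with Cy3 and hybridised to 1-colour arrays; per the file headers the authors deposited 1 scanner file of linear spot intensity values per sample, background-subtracted and not normalized between arrays. A deposited log2 table of the same arrays equalled quantile-normalized log2 median signal minus background (at least 99.76% of values within 0.05) and was an alternative. The labels' notes name limma.

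The log2 processed signal of 59305 gene spots was quantile normalized, outlier spots were dropped, and spots of a probe averaged. Probes were tested if 3 or more arrays had them well above background and no array lost its value as an outlier (33014). From these, 1 per symbol was kept (24357 genes). Differences came from 1 limma 3.58.1 model over the 4 groups (R 4.3.3, lmFit and eBayes), tested on simulated data. RefSeq symbols matched 49.8% of gene spots, and the file's name was kept otherwise. The 16 samples are labelled replicates, so p-values cover their spread. All columns belonged to samples.

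Members, classes and lists were chosen with earlier results of these data known. All 7 members are named, and other genes where called for CCl4, with ligands and receptors named regardless. Fgf21, Irs2's genotype values, Pck1, Socs2 and Trib3 were chosen after seeing values. Of the lists, Igf2, Stc1, Ccn3 and Igfbpl1, and the markers Tf and Cd79a, were not tested. Replicate numbers paired the controls (r of deviations 0.233, 0.368 and 0.552) but not the CCl4 arrays (-0.221 to 0.252). The genes most like Igfbp2 in deviations from group means are not reported here.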

Additional observations from a re-analysis of the deposited data

Results flagged for a closer look

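Igfbp7 on the array Lcn2-/- CCl4 1 read 9.25, apart from 9.77, 9.78 and 9.80 on the other 3 Lcn2-/- CCl4 arrays. Its gap to the nearest of them was 0.95 of the range of the group, above the 95% limit of Dixon's test for 4 samples. Of the 21 member and group combinations of 4 or 5 arrays that were screened, this was the only 1 past its limit, and chance gives about 1 in 20. Without that array the Igfbp7 difference between the genotypes under CCl4 was -0.26, in place of -0.39.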

How the results depend on the processing

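With slide as a fixed block, 1 member passed in WT and 0 in Lcn2-/- mice, in place of 2 and 3. With array weights, 5 members passed in Lcn2-/- mice, Igfbp5 and Igfbp6 being added, and 1 passed for genotype under CCl4. No other alternative moved a count of members called by over 1.5 times. With the replicate block the counts stayed at 2 in WT and 3 in Lcn2-/- mice, the Igfbp7 difference in WT was 1.01, and no call changed. Leaving out single arrays gave 2 to 3 members in Lcn2-/- mice. Over all genes, the calls for CCl4 went from 4094 in WT and 2968 in Lcn2-/- mice to 1302 and 425 with the slide block, to 7054 and 6954 with array weights, and to 703 in WT within slide 1. The 155 genotype calls under CCl4 became 92 with the replicate block, 87 within slide 2, 323 with array weights and 255 without both controls numbered 3. The 129 genotype calls in controls became 1270 with array weights, 216 with no filter, 58 with probes well above background on all arrays, and 0 with limma on the controls alone in a replicate block, where 3960 had an unadjusted p under 0.05. For single members, 367 values kept their direction and their side of the threshold over the alternatives that left out no single array, 4 changed sign, 3 came to pass and 4 no longer passed. With single arrays left out these numbers were 545, 9, 2 and 4. The sign of small differences turned in places. The Igfbp2 WT response was -0.03 without both controls numbered 3 (chosen after seeing the data), and -0.03 to 0.45 over single arrays left out. The Igfbp4 WT response was -0.077 with 75th percentile scaling, -0.0083 without both controls numbered 3, and -0.019 to 0.15 over single arrays left out. The Igfbp6 genotype difference under CCl4 ran from -0.20 to 0.74. The interaction ran from -0.052 to 0.69 for Igfbp5 and from -0.18 to 0.064 for Igfbp7, which was 0.088 with array weights. The cause was not tested. The number of arrays limits the precision.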
